A study of Mus musculus with 10 samples.

Results

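RAD23B regions at active gene promoters are 8461 stretches of the mouse genome, out of 59768 regions listed in wild-type replicate 1 of a RAD23B ChIP-seq experiment in embryonic stem cells. They were selected on measured values by 3 conditions. The region overlapped a region of replicate 2, its read ratio, (RAD23B reads + 1)/(IgG reads + 1), was under 4 in replicate 1, and it lay within 1 kb of the listed start of a protein-coding gene whose wild-type RPKM (reads scaled to transcript length and library size) was above 1. Of 38822 regions shared by the replicates, 8524 lay near such a start, and 63 of these stood at a ratio of 4 or more and were left out. The members therefore make up 21.8% of the shared regions and 14.2% of the replicate 1 list. Replicate 1 ratios, the sharing of regions and wild-type RPKM chose them and are given below as description only. Everything printed rests on 2 ChIP replicates or on single libraries, and no test was run.

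RAD23B is one of the mammalian homologues of yeast Rad23, a ubiquitin receptor that carries substrates to the proteasome. It binds and stabilises XPC, which recognises lesions for nucleotide excision repair, and with centrin-2 the pair forms a trimer that was also purified as a coactivator of OCT4 and SOX2 in embryonic stem cells. A promoter is the DNA around the start of a gene where RNA polymerase II assembles. Many promoters of widely expressed mammalian genes lie in CpG islands, stretches rich in G, C and the dinucleotide CpG, and often initiate transcription in both directions.

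The study profiled RAD23B with affinity-purified guinea pig antibodies and used normal guinea pig IgG as the control. Wild-type cells of the D3 line, a mouse embryonic stem cell line, gave 2 RAD23B and 2 IgG libraries, and Xpc-/- embryonic stem cells gave 1 of each. RNA came from JM8.N4 cells, another mouse embryonic stem cell line, with 1 library each of wild type, Rad23b-/-, Rad23b-/- with Xpc knockdown KD1 and Rad23b-/- with Xpc knockdown KD2, where the knockdowns used independent hairpins. The activity of a gene was therefore read in a line other than the one that gave the regions, and each ChIP library pooled several immunoprecipitations. Whether the replicates are separate cultures, and whether a mutant line is 1 clone, is not stated in the labels, so their spread may be technical. The calling libraries held 109 M reads in wild-type replicate 1, 62.5 M in replicate 2 and 145 M in the Xpc-null list (M stands for 10 to the power 6). All 8 stem cell markers examined were between 44.6 and 2040 RPKM in the wild-type RNA, while the fibroblast markers Col1a1, Col1a2, Col3a1, Thy1, Postn and Lum were under 1, with Postn and Lum at 0, and Vim was at 189. Other genes that fibroblasts express were found too, with Sparc at 175 RPKM and Fn1 and Acta2 above 1. Of the germ layer markers T, Sox17, Afp and Cdx2 were under 1 RPKM, Gata4 and Pax6 at 1.26 and 2.78, and the epithelial keratin genes Krt8 and Krt18 at 21.4 and 18.4. In bulk samples, fewer cells of a type and less RNA per cell cannot be told apart.

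Promoter sequence was not part of the selection, so stretches of the members' promoters are shown first. They are RefSeq promoter entries of build GRCm38.p6, matched to the 8236 member genes by name, with 6605 matched (80.2%). The deposited regions are in mm9, so entries and regions were joined by gene and not by coordinates. A stretch need not lie inside the region of its gene. At Mki67 the GC box stretch is 130 to 41 bases before the annotated start, and the region 556 to 165 bases before the listed start. Each stretch has 90 bases upstream of the annotated start, read 5′ to 3′ on the strand of the gene. Capitals mark the first match of 1 motif on either strand, and the genes are those of highest replicate 2 fold whose entry held that motif.
Mki67, CCAAT box: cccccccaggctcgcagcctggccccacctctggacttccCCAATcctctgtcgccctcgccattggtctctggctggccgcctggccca
Mki67, GC box: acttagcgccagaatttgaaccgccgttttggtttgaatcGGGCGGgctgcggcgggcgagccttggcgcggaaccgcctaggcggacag
Tnnt1, TATA box: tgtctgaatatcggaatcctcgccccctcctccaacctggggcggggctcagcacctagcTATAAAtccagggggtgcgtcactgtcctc
Fnbp4, NRF1 core: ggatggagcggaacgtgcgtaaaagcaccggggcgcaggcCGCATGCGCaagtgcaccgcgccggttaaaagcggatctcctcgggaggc
6430527G18Rik, CRE: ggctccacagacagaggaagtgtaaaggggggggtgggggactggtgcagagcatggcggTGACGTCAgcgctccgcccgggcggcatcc
Mtcp1, YY1 site: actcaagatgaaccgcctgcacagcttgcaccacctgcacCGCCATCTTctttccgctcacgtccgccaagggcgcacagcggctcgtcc
Pafah2, ZFP143 core: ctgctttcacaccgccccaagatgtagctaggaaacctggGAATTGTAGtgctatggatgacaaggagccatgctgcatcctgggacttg
The first 2 stretches are chr7:135716518-135716607 and chr7:135716420-135716509, both on the minus strand, at Mki67, which encodes the proliferation antigen Ki-67. The Tnnt1 stretch, at the gene of slow skeletal troponin T, is chr7:4515976-4516065 on the minus strand. The others are chr2:90745414-90745503 on the plus strand, chr12:86884815-86884904 on the minus strand, chrX:75416675-75416764 on the minus strand and chr4:134396184-134396273 on the plus strand.

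Members' promoters were richer in CpG than the entries of all protein-coding genes. The median entry of a member gene had 62.3% G and C and an observed over expected CpG ratio of 0.80, against 56.3% and 0.58 over 17491 entries of protein-coding genes and 52.7% and 0.39 over all 27025 entries, 1 a gene. Calling an entry CpG-rich where this ratio was above 0.6 and G and C above 55%, 4635 of 6605 member genes had such an entry (70.2%, exact Clopper-Pearson 95% interval 69.1 to 71.3), against 41.0% of protein-coding entries and 30.5% of all entries. Intervals in this text cover counting error only, and genes are not replicates. The same check is void for active genes without a member, of which 73.5% matched, and for genes at an RPKM of 1 or less with a shared region, of which 68.9% matched, since under 80% had an entry.

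Several motifs stood in a larger share of member entries than of all protein-coding entries, which include the members and genes at an RPKM of 1 or less. The comparison does not separate members from other active genes, for which the check is void as above. Member entries were also richer in G, C and CpG, and the motif shares were not adjusted for that composition. Entries have 250 bases before the start and 50 after, both strands were searched, none of the 12 motifs contains another, and a match is a run of letters and no evidence of binding. The GC box GGGCGG, the recognition sequence of SP1 and related factors, stood in 70.8% of member entries, 46.3% of protein-coding entries and 35.9% of all entries. The ETS site CCGGAAGT stood in 9.08%, 5.28% and 3.99% in the same order. The NRF1 core GCGCATGCG, bound by a regulator of mitochondrial and growth genes, stood in 4.50%, 2.41% and 1.81%.
Other motifs with higher shares among members were the E-box CACGTG (11.0% against 7.91% of protein-coding entries), the cyclic AMP response element TGACGTCA (3.53% against 2.33%), the YY1 site AAGATGGCG (3.42% against 1.92%) and the ZFP143 core CTACAATTC (0.82% against 0.51%). CCAAT, the NF-Y sequence, stood in 38.9% of member and 39.2% of protein-coding entries. TATAAA was less frequent among members, in 6.07% against 13.3% of protein-coding entries. Motifs of stem cell factors were not more frequent among members either: the octamer ATGCAAAT stood in 1.26% of member entries against 1.72%, the SOX site ACAATGG in 1.50% against 2.89%, and the ESRRB site TCAAGGTCA in 0.24% against 0.33%.

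Regions at CpG-rich and at other member promoters differed in width more than in fold. The 4635 member genes with a CpG-rich entry had regions of median width 849 bp, median folds over IgG of 1.80 and 1.84 in replicates 1 and 2, and 322 RAD23B and 171 IgG reads per kb in replicate 1. The other 1970 matched member genes had 754 bp, 1.78 and 1.87, and 306 and 165 reads per kb. The fold printed here and below is the authors' deposited scaled ratio of RAD23B to IgG reads in a region.

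At active promoters RAD23B regions were wide and of low fold, with many IgG reads beneath them. Members had a median width of 784 bp in replicate 1 (quartiles 606 and 1022) and overlapped replicate 2 regions of median width 597 bp. Per kb of region they held a median of 312 RAD23B and 166 IgG reads in replicate 1, and 179 and 97.7 in replicate 2. The shared regions of ratio under 4 at starts of genes with an RPKM of 1 or less, here silent promoters (1616 regions), held 272 and 152 in replicate 1 and 167 and 88.2 in replicate 2. Those inside genes away from any start (14189) held 276 and 140, then 166 and 78.1, and those outside genes (11475) held 270 and 130, then 164 and 72.9. Both RAD23B and IgG reads were thus highest at active promoters in both replicates, and against regions inside and outside genes the IgG level differed by the larger factor. Against silent promoters RAD23B differed by the larger factor in replicate 1 and IgG in replicate 2.

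The fold was lower at promoters than elsewhere. Members had a median fold of 1.80 in replicate 1 (quartiles 1.60 and 2.05) and 1.86 in replicate 2 (1.64 and 2.15), against 1.73 and 1.91 at silent promoters, 1.93 and 2.14 inside genes and 2.06 and 2.28 outside genes. A fold of at least 2 was reached by 29.5% of members in replicate 1 (95% interval 28.5 to 30.5) and 37.4% in replicate 2 (36.4 to 38.4), and by 53.6% and 66.6% of regions outside genes. Silent and active promoters changed order between the replicates, with 24.9% and 42.8% of silent promoter regions at 2-fold or more. Both replicates came from 1 cell line, each with its own IgG library. Across the 8461 members the folds of the 2 replicates had a Spearman correlation of 0.73, against 0.70 at silent promoters, 0.81 inside genes and 0.82 outside genes. RAD23B and IgG reads per kb in replicate 1 had a Spearman correlation of 0.58, against 0.50 at silent promoters, 0.39 inside genes and 0.35 outside genes.

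**Figure D1:**
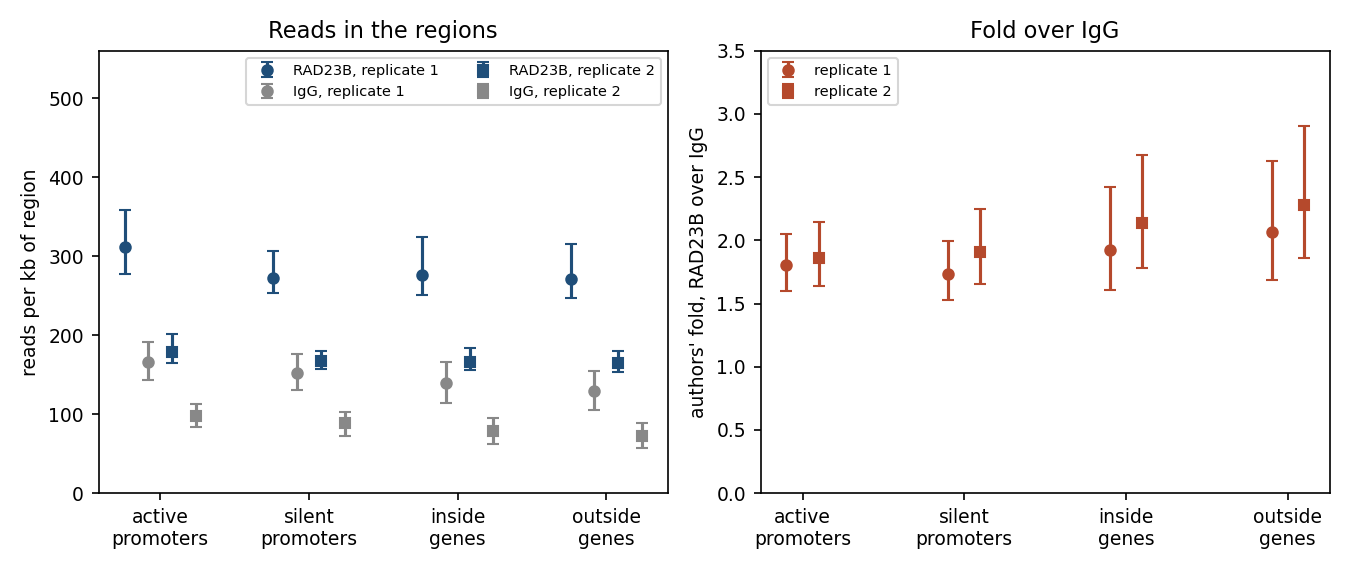
Reads per kb of region (left) and authors' fold of RAD23B over IgG (right) for regions at active promoters (8461), at silent promoters (1616), inside genes away from starts (14189) and outside genes (11475). Points are medians and bars the quartiles over regions. RAD23B and IgG reads are both highest at active promoters, and the fold rises from promoters to regions outside genes.

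Named members show the range. Among the highest replicate 2 folds were those at Riok3, encoding an atypical protein kinase (234 RAD23B and 85 IgG reads in replicate 1, 64 and 10 in replicate 2, folds 2.61 and 5.91), and at Mki67, whose region chr7:142908227-142908618 lay 165 to 556 bases upstream of the listed start and held 82 and 21 reads, then 43 and 7 (3.60 and 5.50). Alg8, an enzyme of N-glycan assembly, had 156 and 40 reads at chr7:104519240-104519756, then 83 and 15 (3.65 and 5.25). These rest on 7 to 15 IgG reads in replicate 2.
Pcbp4, an RNA-binding protein gene, stood at 3.47 and 4.88, and the predicted gene Gm6685 at 2.26 and 4.73. The folds of the replicates differed by more than 2-fold at Riok3 and Gm6685 and by less at Mki67, Alg8 and Pcbp4.
The lowest replicate 2 folds were at a region shared by Gm505 and Exoc8, a subunit gene of the exocyst (chr8:127420482-127422381, 658 and 546 reads, then 330 and 281, folds 1.15 and 1.17), at Ncln (1.29 and 1.21), at Impact (1.34 and 1.22) and at Mlycd, encoding malonyl-CoA decarboxylase (1.22 and 1.23). In these 4 the reads of RAD23B exceeded those of IgG by little in both replicates.

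The limit at a ratio of 4 cut through a continuous range. Just under it were Satb1, encoding a chromatin organiser (ratio 3.98, 206 and 51 reads), Dll1, a Notch ligand gene (3.97, 440 and 110), and Bmi1, a Polycomb gene (3.97, 134 and 33). Just over it were Hnrnpa3 (4.00, 219 and 54), Stmn1 (4.01, 685 and 170) and Dppa5a, a stem cell marker (4.05, 582 and 143). The widest members lay at Pim3, a kinase gene (chr15:88691855-88695852, 3997 bp, 1612 and 956 reads, folds 1.61 and 1.89), Mtss1 (3577 bp, 2.11 and 1.63), Ssbp4 (3443 bp, 1.84 and 2.09) and Actg1, the gene of gamma actin (3379 bp, 1.81 and 2.25).

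Most members lay over the start itself. The listed start was inside the region in 6722 of 8461 members (79.4%), against 62.3% of 1616 silent promoter regions. The centre of the member was a median of 35.5 bp downstream of the start (quartiles -88.5 and 190.5 bp, negative upstream), and 67.9% of centres were within 250 bp, against 53.6% at silent promoters. Cover was lower on both sides: at 500 bp upstream 25.2% of members covered the position and at 500 bp downstream 37.8%. At silent promoters these shares were 17.0% and 29.0%, with the same lean downstream. A window of 1 kb was part of the selection, so the range is fixed while the distribution inside it is not. The share over the start depends on that window: the same 6722 regions were 87.9% of members at 500 bp and 70.7% at 2 kb.

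**Figure D2:**
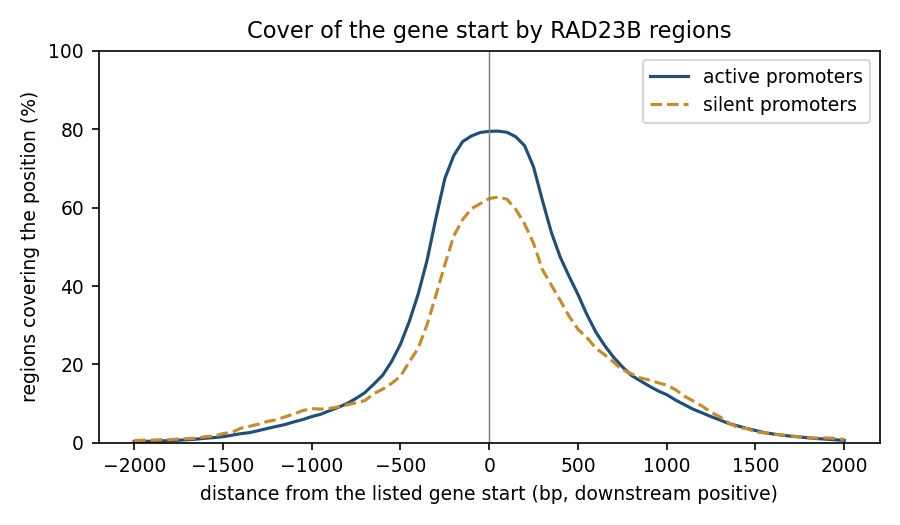
Share of regions that cover each position, in percent, against the distance from the listed gene start in bp, for regions at active promoters (solid, 8461) and at silent promoters (dashed, 1616). The share at the start is 79.4% for active and 62.3% for silent promoters, and both curves are wider downstream than upstream.

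Most head-to-head promoters shared a member. Among active genes 569 pairs lay head to head, on opposite strands with starts at most 1 kb apart (median gap 130 bp), and in 504 of them (88.6%) 1 member served both starts. The other 65 pairs had none at either start, and 0 pairs had one at a single start; the 1 kb windows of a pair overlap, and 1 region can count for both. Of the 1138 starts in such pairs 88.6% had a member (95% interval 86.6 to 90.4), against 68.7% of 10195 other active starts (67.8 to 69.6). The first of these intervals counts both starts of a pair, which always had the same outcome, and is therefore too narrow. Regions at pairs had a median width of 887 bp and folds of 1.73 and 1.75, other members 778 bp, 1.81 and 1.87.
Of the pairs, Spry4 and Arhgap26 had the most RAD23B reads (1165 with 387 of IgG, then 378 and 116, folds 2.87 and 3.24), with 12.9 and 1.63 RPKM. Spry4 encodes an inhibitor of receptor tyrosine kinase signalling. Nlgn2 and 1810027O10Rik shared chr11:69650124-69652674 (1107 and 332, then 544 and 163, folds 3.17 and 3.32). Hnrnpa2b1, a splicing factor gene, and Cbx3, which encodes the heterochromatin protein HP1 gamma, shared chr6:51418819-51421325 (1011 and 483, then 425 and 216, folds 1.99 and 1.96). This pair holds the ubiquitous chromatin opening element of cell culture vectors. Pcid2 and Cul4a, the scaffold gene of a ubiquitin ligase that acts in nucleotide excision repair, shared chr8:13104427-13106508 (943 and 530, then 419 and 244, folds 1.69 and 1.72).

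Of 11687 active protein-coding genes, 8236 had a member, which is 70.5% and the background for every group below. Among 10513 protein-coding genes at an RPKM of 1 or less, 1819 had a shared region of ratio under 4 within 1 kb, or 17.3%. No region of either replicate was listed within 1 kb for 2401 active genes (20.5%), 975 had only replicate 1 regions that replicate 2 did not list, 45 had only a replicate 2 region, and 30 had only regions at a ratio of 4 or more. The active genes without any listed region had a median of 10.3 RPKM, those with a member 17.2. Genes with coordinates of their own had a member in 74.9% of 7244 cases and genes that share their listed coordinates with others in 63.2% of 4443, where the listed start need not be that of the gene.

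The share of genes with a member rose with expression and then levelled off, while the fold stayed level. Sorted by wild-type RPKM into 10 bins of equal size, 54.4% of active genes in bin 1 (1.00 to 2.13 RPKM; 95% interval 51.5 to 57.3) had a member, 69.8% in bin 4, 76.0% in bin 7 and 76.7% in bin 10 (101 RPKM and above). Over the bins the median fold stayed between 1.77 and 1.82 in replicate 1 and between 1.81 and 1.87 in replicate 2. RAD23B reads per kb went from 296 in bin 1 to 339 in bin 10 and IgG reads from 160 to 179, a similar proportion. The genes of highest RPKM with a member were Eef1a1, the elongation factor 1 alpha gene (29348 RPKM, region chr9:78335454-78336195 with 198 and 106 reads, then 108 and 50, folds 1.77 and 2.14), Flt3l (7111 RPKM, on coordinates shared with other genes, 1.54 and 1.81), Hspa8 (6691 RPKM, 2.06 and 2.18), Ppia (6260 RPKM, 1.90 and 1.65) and Hsp90aa1 (5505 RPKM, 2.26 and 2.83). Their replicate 1 folds, 1.54 to 2.26, spanned the middle range of all members. The Eef1a1 region lay 763 to 1504 bases downstream of the listed start. The genes of highest RPKM with no listed region were mt-Atp8, mt-Co1, mt-Co2 and mt-Nd2, which lie on the mitochondrial genome, and the predicted gene Gm13151, whose listed coordinates 30 genes share.

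**Figure D3:**
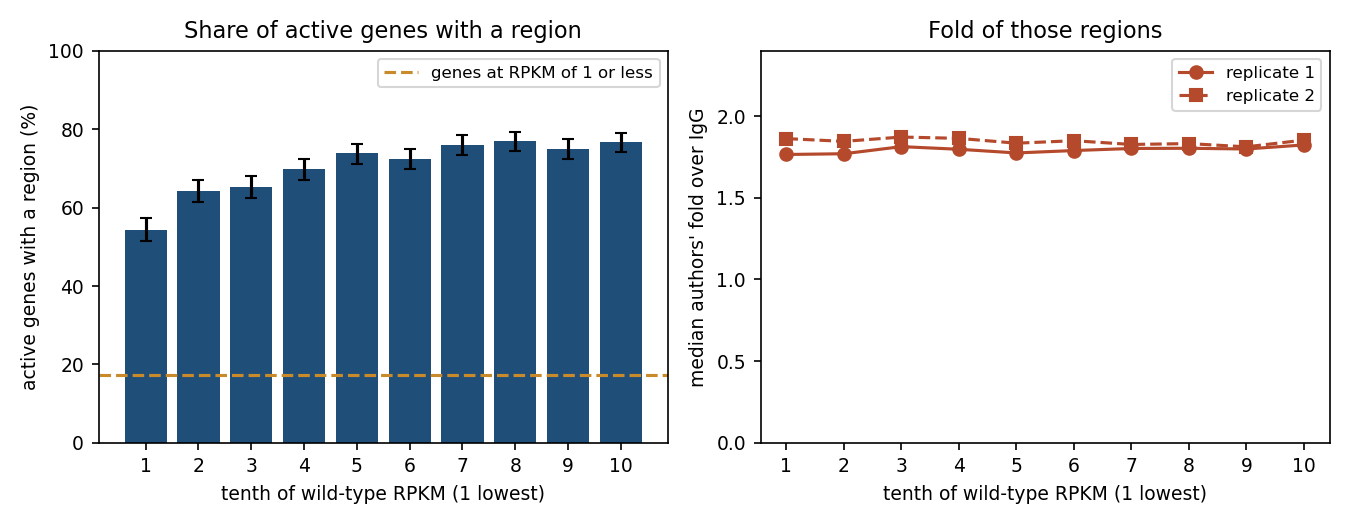
Left, share of active protein-coding genes with a region at the start, in percent, by wild-type RPKM in 10 bins of equal size, with exact 95% intervals; the dashed line is the share of genes at an RPKM of 1 or less. Right, median authors' fold of those regions in each replicate. The share goes from 54.4% to 76.7% and the fold stays between 1.77 and 1.87.

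Members were scarce on the X chromosome. Of 398 active X-linked genes 67 had a member (16.8%, 95% interval 13.3 to 20.9), against 8169 of 11254 on the autosomes (72.6%, 71.8 to 73.4), at a median expression of 12.6 and 14.9 RPKM. Another 75 X-linked genes (18.8%) had a replicate 1 region that replicate 2 did not list, against 8.00% on autosomes. The X-linked members had fewer reads of both kinds, with medians of 260 RAD23B and 98.3 IgG reads per kb in replicate 1 against 318 and 169, and higher folds, at 2.56 and 2.57 against 1.80 and 1.85. No listed region of replicate 1 had a maximum of fewer than 61 extended reads and none of replicate 2 fewer than 40.
Chromosomes 8 and 15 lay at the other end. There 79.2% of 650 and 82.7% of 462 active genes had a member, with 373 and 370 RAD23B and 218 and 212 IgG reads per kb, and the lowest autosomal folds (1.64 and 1.68 on chromosome 8, 1.68 and 1.73 on chromosome 15). Other autosomes ranged from 64.5% of 925 genes on chromosome 2 to 78.4% of 958 on chromosome 11, with 306 to 321 RAD23B and 157 to 175 IgG reads per kb. The part of the read level in these shares was not tested.

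**Figure D4:**
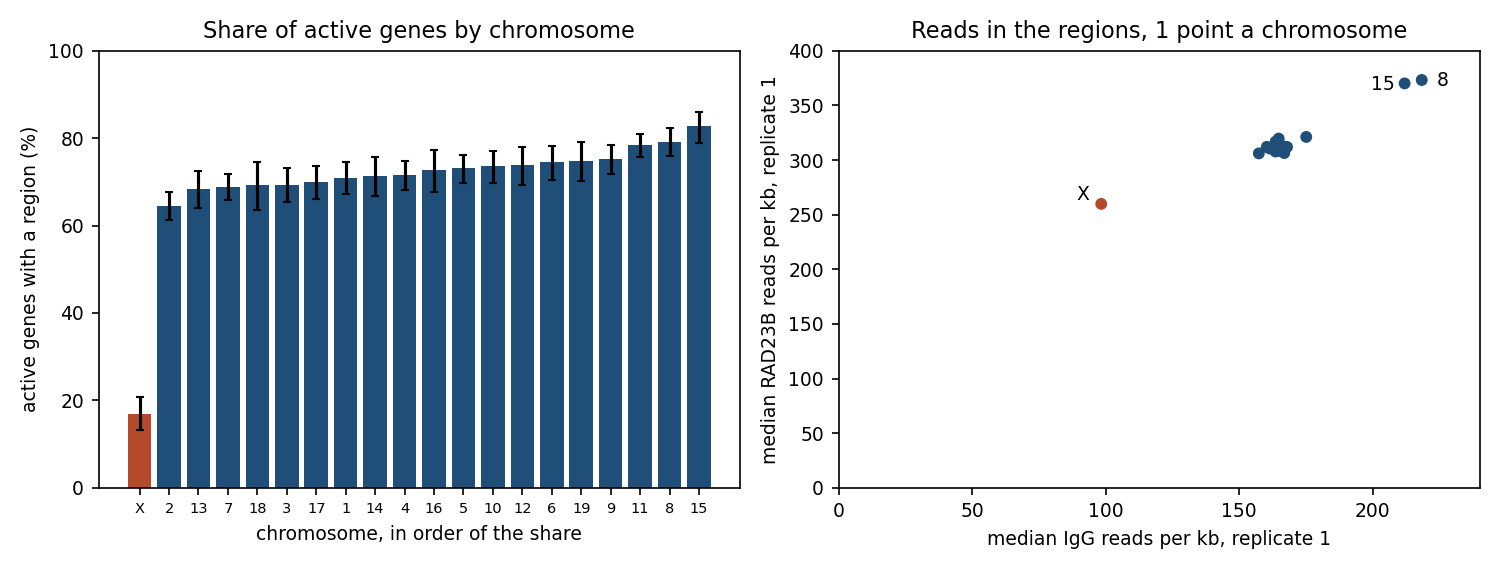
Left, share of active protein-coding genes with a region at the start, in percent, by chromosome in order of the share, with exact 95% intervals and the X chromosome in red. Right, median RAD23B against median IgG reads per kb in replicate 1, 1 point a chromosome. The X chromosome stands at 16.8% with the lowest reads of both kinds, and chromosomes 8 and 15 have the highest.

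Among pluripotency genes the core factors were split. At Pou5f1, which encodes OCT4, the member over the start (chr17:35642594-35643304) had 312 reads of RAD23B and 145 of IgG in replicate 1 and 145 and 64 in replicate 2 (folds 2.04 and 2.25); a neighbour within 1 kb stood at a ratio of 5.24 and is no member. At Nanog the member chr6:122656984-122657848 held 508 and 142, then 262 and 67, folds 3.39 and 3.87. Sox2 had no listed region within 1 kb of its listed start, which it shares with other genes. Nanog thus stood far above the members' upper quartile in both replicates and Pou5f1 close to it.
Of 12 genes of the naive state, 8 had a member. Prdm14, a repressor of differentiation genes, had 342 and 114 reads, then 159 and 54 (folds 2.84 and 2.91), in a region 703 to 1807 bases upstream of the start. Zfp42, which encodes the marker REX1, had 442 and 151, then 230 and 84 (2.78 and 2.72). Sall4 reached 2.81 and 2.07, Stat3, the effector of LIF signalling, 2.24 and 2.39, and Klf5, Klf4, Tfcp2l1 and Klf2 lay between 1.62 and 1.92 in replicate 1 and between 1.50 and 2.24 in replicate 2. Esrrb and Tbx3 had no listed region within 1 kb of the listed start, Dppa3 one in replicate 2 only and Nr0b1 one in replicate 1 only. Tbx3 shares its listed coordinates with other genes. The list's 66.7% (95% interval 34.9 to 90.1) lay near the background.

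The genes of the complex itself and of its partners were members in part. Rad23b had a region at its own start (chr4:55362299-55363234, 327 RAD23B and 121 IgG reads, then 177 and 57, folds 2.56 and 3.07), and Xpc had one with 287 and 148, then 135 and 62 (1.84 and 2.16). The centrin genes Cetn2 and Cetn3 had none listed within 1 kb of the listed start, which Cetn3 shares with other genes. Of the dyskerin complex, which modifies RNA and also acts as a coactivator in stem cells, Dkc1 (2.84 and 3.46), Gar1 (2.05 and 2.11) and Naf1 (1.94 and 1.81) had members, while Nop10 and Nhp2 had a replicate 1 region only. Abcf1, another coactivator gene, had 1.60 and 1.68. X-linked Dkc1 rested on few reads, 112 and 37, then 44 and 12.

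Several lists of chromatin and growth genes had shares above the background of 70.5%, and the intervals of chromatin regulators, p53 targets and the respiratory chain left it out. That background was not matched for expression, and the intervals were not adjusted for the number of lists. The respiratory chain had a median of 159 RPKM, and the share of bin 10, 76.7%, lies inside its interval. Chromatin regulators (median 70.3 RPKM) and p53 targets (30.8 RPKM) fall in bins 9 and 7, with shares of 74.9% and 76.0%, below their intervals. Only the median of each list was placed in a bin, so single genes were not matched, and neither was CpG content. The lists were chosen with earlier results of these data known. Chromatin regulators had a member at 33 of 35 active genes (94.3%, 95% interval 80.8 to 99.3), with Trim28, the corepressor of retroelements, at folds of 1.77 and 1.81, Kdm1a, a histone demethylase gene, at 2.13 and 2.16, and Hdac2 and Dpy30 without one. All 18 active p53 targets had one (100%, 81.5 to 100), among them Ccng1 (1.71 and 1.68) and Bax (1.93 and 2.02), an activator of apoptosis. Cell cycle genes had 27 of 31 (87.1%, 70.2 to 96.4), with Cdk1 at 2.50 and 2.39 and Cdk4 at 1.74 and 1.61, and the list's median folds, 2.13 and 2.16, were the highest of any list of 15 or more active genes.
Lists of energy and protein synthesis had similar shares. The respiratory chain had 38 of 44 (86.4%, 72.6 to 94.8), with Atp5b of the ATP synthase at 1.99 and 2.14 and Atp5a1 at 1.81 and 1.68. Transfer RNA synthetases had 18 of 20 (90%, 68.3 to 98.8), with Kars at 1.40 and 1.49 and Dars at 1.81 and 1.47. Translation factors had 26 of 30 (86.7%, 69.3 to 96.2) and glycolysis 15 of 18 (83.3%, 58.6 to 96.4), where Eno1 stood at 2.42 and 2.27, Pkm2 at 2.48 and 2.33 and Eif4a1 at 1.40 and 1.56. The intervals of the cell cycle, synthetase, translation and glycolysis lists include the background.
DNA repair and the transcription machinery were near the background. Nucleotide excision repair had 16 of 21 (76.2%, 52.8 to 91.8), with Ddb1, which recognises damage with DDB2, at 2.04 and 2.21 and Rpa1 at 1.75 and 1.74, and with Xpa, Ercc2, Ercc8, Gtf2h2 and Gtf2h4 without a member. RNA polymerase II and its general factors had 22 of 30 (73.3%), with Polr2a, the largest subunit gene, at 1.90 and 1.98 and Taf9 at 1.69 and 2.05. Mediator and cohesin had 9 of 18 (50.0%, 26.0 to 74.0), with Med1 at 1.55 and 1.56 and Rad21 at 1.63 and 1.64. The spliceosome list had 25 of 38 (65.8%), with the RNA-binding protein genes Hnrnpa1 at 1.65 and 1.58 and Hnrnpc at 1.50 and 1.49, and DNA replication had 26 of 36 (72.2%), with Pcna, the sliding clamp, at 1.88 and 2.11 and Mcm6 of the replicative helicase at 2.25 and 2.28. The intervals of these 5 lists include the background too.
The same holds for the ribosome, proteasome, chaperone and pore lists. The cytosolic ribosome had 29 of 39 (74.4%), with Rplp1 at 1.45 and 1.41, and the mitochondrial ribosome 22 of 32 (68.8%), with Mrpl15 at 1.55 and 1.66 and Mrps23 at 1.75 and 1.69. The proteasome, the protease to which RAD23 proteins deliver substrates, had 24 of 31 (77.4%), with Psma4 at 1.77 and 2.23, Psmb6 at 2.01 and 1.43 and median folds over the list of 1.64 and 1.63, below those of all members. Chaperonin and heat shock genes had 15 of 20 (75%) and nuclear pore genes 16 of 21 (76.2%), with Seh1l at 3.04 and 2.62 and Nup85 at 1.34 and 1.85. Fibroblast genes (3 of 5 active) and germ layer genes (3 of 5 active) were too few to place, with Vim at 2.14 and 2.47, Sparc at 1.41 and 1.87, Krt8 at 1.93 and 1.91 and Krt18 at 1.65 and 1.73.

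**Figure D5:**
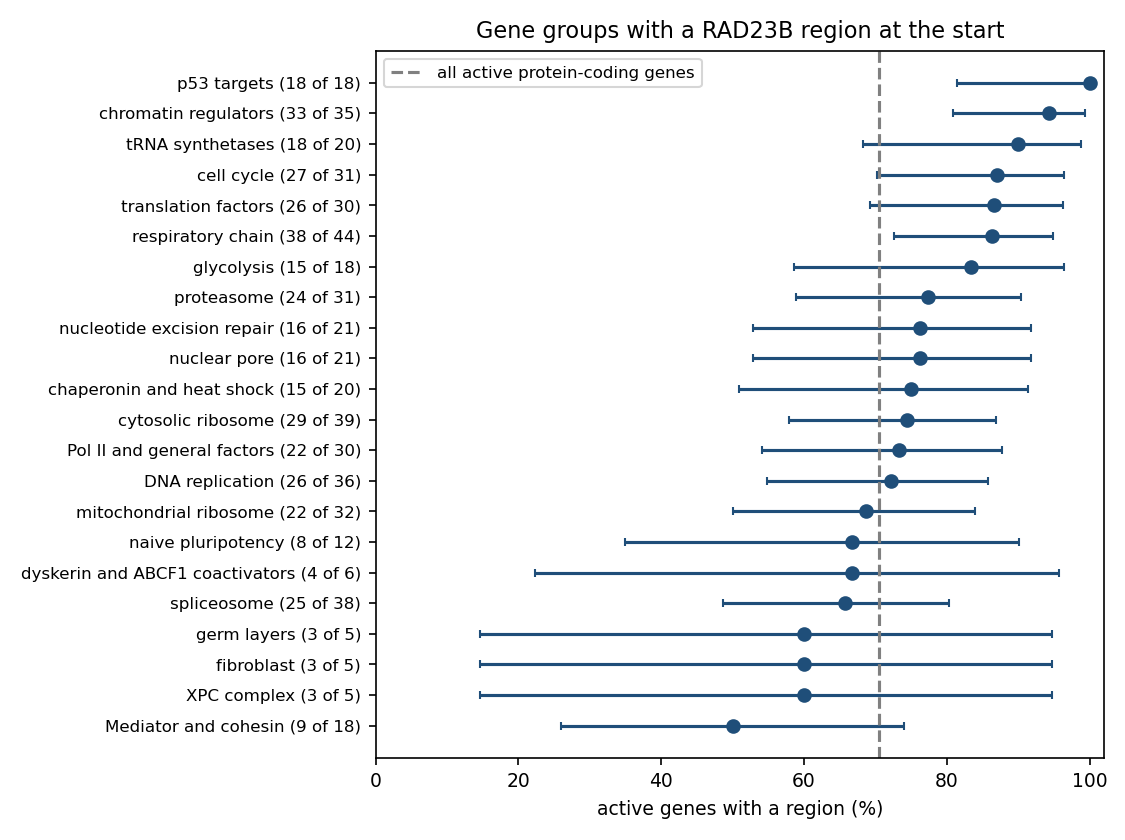
Share of the active genes of each group of 5 or more that have a RAD23B region at the start, in percent, with exact 95% intervals; the counts stand beside the names and the dashed line is the share of all active protein-coding genes, 70.5%. p53 targets and chromatin regulators have the highest shares and Mediator and cohesin the lowest, and most intervals include the line.

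Expression of member genes in mutant cells was compared within each table as the log2 ratio of RPKM + 1, a scale that understates changes of low genes. Rad23b stood at 229 RPKM in the wild-type library and at 43.9, 35.8 and 52.5 in Rad23b-/-, KD1 and KD2 cells, and Xpc at 8.73, 8.34, 0.92 and 0.90. In Rad23b-/- cells 124 of 8236 were at least 2-fold higher and 286 at least 2-fold lower (1.51% and 3.47%), against 1.83% and 3.58% of all active genes, with a median of -0.20 against -0.19. In KD1 cells 90 were higher and 190 lower (1.09% and 2.31%, background 1.49% and 2.5%), and in KD2 cells 105 and 200 (1.27% and 2.43%, background 1.54% and 2.53%). Active genes without a member were at least 2-fold higher in 2.61%, 2.43% and 2.17% of 3451 cases and at least 2-fold lower in 3.82%, 2.96% and 2.78%, in the same order of mutants. Higher genes were thus a smaller share of members than of active genes without one in all 3, while members lay near the background. Among active genes up to 7.74 RPKM in the wild type, the shares higher were 3.25%, 2.14% and 2.51% with a member and 3.88%, 3.95% and 3.34% without. From there to 28.7 RPKM they were 1.13%, 0.88% and 1.02% with a member and 2.65%, 2.18% and 1.89% without. Above it they were 0.44%, 0.44% and 0.51% with a member and 0.54%, 0.32% and 0.65% without, so the order turned in KD1 cells. The 3 comparisons share 1 wild-type library, and each group has 1 library, so none of these differences has a replicate check.
The median of all active genes lay at -0.19, -0.17 and -0.17, and relative to it the balance of higher and lower member genes turned. After centring, 209 member genes were higher and 151 lower in Rad23b-/- cells (2.54% and 1.83%, background 3.06% and 1.96%), 154 and 100 in KD1 cells (1.87% and 1.21%, background 2.37% and 1.41%) and 171 and 109 in KD2 cells (2.08% and 1.32%, background 2.56% and 1.54%).
The direction went with the wild-type level, and the same wild-type library enters the ranking and the ratio. Among active genes up to 7.74 RPKM, member genes had a median log2 ratio of 0.06 in Rad23b-/- cells and active genes without a member 0.04. From there to 28.7 RPKM the medians were -0.17 and -0.16, and above it -0.38 and -0.39. Genes with and without a member differed by less than these 3 levels of expression did.

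The member genes furthest from the wild type in Rad23b-/- cells did not all stand apart in the other mutants. Wild-type values are those of the Rad23b-/- table, which lie 1.03 and 1.02 times above those of the KD1 and KD2 tables. Trh, the gene of the thyrotropin-releasing hormone precursor, stood at 242 RPKM in wild type and 27.6, 25.9 and 67.9 in Rad23b-/-, KD1 and KD2 cells, with a region of 218 RAD23B and 79 IgG reads (chr6:92194439-92195097, folds 2.61 and 2.95). Klhdc7a stood at 7.45 and 0.22, 0.30 and 0.18, and 1190002H23Rik at 13.6 and 1.69, 1.89 and 2.47. These 3 were low in all mutants. Mmp17, a membrane-anchored metalloproteinase gene, was at 69.5 in wild type and at 4.73, 5.76 and 57.5 in the mutants, and the predicted gene Gm3625 at 25.8 and at 0, 10.3 and 10.2.
In the other direction, Tmc5 stood at 1.28 in wild type and 11.4, 6.52 and 8.16 in the mutants, and Gm53 at 1.89 and 18.2, 6.15 and 5.34. Both were higher in all mutants. Prmt2, an arginine methyltransferase gene, was at 5.28 and 168, 6.33 and 5.35, Trps1, a GATA-type repressor gene, at 2.17 and 24.3, 1.88 and 2.37, and Vps8, of endosomal sorting, at 10.3 and 92.9, 8.47 and 89.4. The last 3 were thus each high in only part of the mutant libraries. Folds at the starts of these 10 genes were between 1.32 and 2.61 in replicate 1 and between 1.53 and 3.61 in replicate 2, at Prmt2 and, for the highest, at Trh and Gm53.

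In Xpc-/- cells few members were listed. The Xpc-null list holds 828 regions, 207 of them (25%) over members, and 200 of 8461 members overlapped one (2.36%, 95% interval 2.05 to 2.71), against 1.24% of silent promoter regions, 1.15% inside genes and 0.65% outside genes. Of these 207 regions 0 had more reads under the RAD23B heading than under the IgG heading (medians 45 and 86). Their deposited fold, a median of 1.57, follows reads headed IgG over reads headed RAD23B, so the direction of the counts goes with how the list was scaled. As headed they are no record of RAD23B above IgG, and they cannot show its absence either. Whether the 2 headings are exchanged was not tested. Of the 200 members 88 lay on chromosome 8, where 17.4% of members overlapped one, against 1.41% elsewhere. This excess was not particular to members: over all shared regions the shares were 7.73% on chromosome 8 and 0.66% elsewhere. The overlapping members had more reads of both kinds in wild-type replicate 1, with medians of 393 RAD23B and 206 IgG reads per kb against 311 and 166, and were wider, at 1121 against 780 bp, at folds of 1.81 and 1.83 against 1.80 and 1.86.
Those of most wild-type reads were all on chromosome 8. Gdf15, encoding a stress-induced cytokine, had 1480 RAD23B and 822 IgG reads at chr8:73153326-73156113, and the Xpc-null region inside it had 126 reads headed RAD23B and 196 headed IgG. Ankrd10 had 1359 and 639, with 141 and 261 in the Xpc-null list, and Chd9, a chromatin remodeller gene, 1325 and 493, with 61 and 114. The members named above at Klf2, Hspa8, Abcf1, Eif4a1 and the Nlgn2 pair overlapped an Xpc-null region as well, and those at Pou5f1 and Nanog did not.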

How the data were processed

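ChIP-seq regions were called against IgG in mm9. Partek was used, per the submitters' processing notes; how reads were aligned and regions called is not given in the sources used here. Per the file headers, the authors deposited for each region the count of reads of each library, a scaled fold (a ratio of the libraries), a signal (the maximum of extended reads) and that maximum as RPM, from which library reads were computed. The columns of the replicate 2 list are headed with the replicate 1 libraries; in 2455 pairs of regions with ends within 20 bp the reads differed (median quotient 1.70 for RAD23B and 1.89 for IgG), so they were taken as replicate 2. The fold that the authors deposited for the Xpc-null list follows reads headed IgG over reads headed RAD23B, and columns are named by heading. RPKM came from TopHat2 2.0.6, Cufflinks 2.0.2 and Cuffdiff, per the submitters' processing notes, and the authors scaled each table separately. A deposited RPKM of exactly 1 (13889 wild-type values) was read as 0, and 72 lines that name no gene (0.0014% of wild-type RPKM) were left out. RNA depth is unknown.

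Regions sharing 1 base or more were counted as overlapping. A gene's start was the outer end of its listed coordinates. Of several regions at 1 gene, that of most replicate 1 RAD23B reads was used. With 1 or 2 libraries per group no test was run. Scripts ran in Python 3.11.15 with pandas 2.3.3, scipy 1.17.1 (intervals), numpy 2.4.6 and, for plots, matplotlib 3.10.9, the interval code was tested on simulated data, and promoter entries were the most upstream RefSeq entry per gene. The members and gene lists were chosen with earlier results of these data known. Named genes are the 2 of highest RPKM per list with a member (all in the pluripotency, XPC and dyskerin lists), the extremes of replicate 2 fold, ratio, width, RPKM, divergent-pair reads and log2 ratio (own coordinates, 5 RPKM or more in 1 library), and the highest-fold gene per motif. Some genes that this rule names are not reported here.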

Additional observations from a re-analysis of the deposited data

How the results depend on the processing

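The number of members, the share of active genes with one, their replicate 2 fold, width and place, the Xpc-null overlap, the Rad23b-/- expression counts and the GC box share were recomputed under other settings; the bins, chromosomes, pairs, gene lists, other motifs and knockdown comparisons were not. The 8461 members became between 5858 (only genes on coordinates of their own) and 10367 (without replicate 2; 9027 without replicate 1), within 1.5 times in every setting. The share of active genes with a member, 70.5%, was 68.4% with a window of 500 bp, 73.2% with 2 kb, 65.1% where 50% of the region had to overlap, 73.7% at an RPKM above 5, 74.9% for genes on their own coordinates, and 70.7% to 78.8% without replicate 1 or 2; without an upper ratio limit (70.7%) or with the authors' fold under 4 (70.5%) it stayed inside its interval. The median replicate 2 fold stayed between 1.85 and 1.88. The share of members over the start, 79.4%, was 87.9% with a window of 500 bp and 70.7% with 2 kb. It was 73.1% without replicate 2, 71.3% without replicate 1 and between 79.2% and 81.4% in the other settings. Median width was 579 bp without replicate 1, below the members' lower quartile of 606 bp, and between 717 and 804 bp in the other settings. The overlap with the Xpc-null list was 2.03% to 2.12% without replicate 2 or 1. Member genes at least 2-fold apart in Rad23b-/- cells, 410, were 276 to 587 in number; the 124 higher were 60 at an RPKM above 5, 197 with a pseudocount of 0.1 and 209 after centring, and the 286 lower were 187 for genes on their own coordinates and 151 after centring. The GC box share was 65.4% in the bases before the start alone; with genes on their own coordinates under 80% matched, so it was not computed. No single value changed sign, but centring turned the balance of higher and lower member genes. No paired analysis was possible because no result comes from a test; RAD23B and IgG of 1 replicate enter as their fold. Replicate 2 had 62.5 against 109 M reads and narrower regions; the part of depth in this was not tested.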
